A study of Mus musculus with 4 samples.

Results

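Vim, Nes, Plec, Dst and Macf1 are 5 genes whose proteins form cytoplasmic intermediate filaments or tie filaments to other parts of the cell, and they were picked out by gene symbol from the 24421 symbols of the count matrix. Each symbol was found, and all 5 had enough counts to be tested. Transcripts were counted in B16F10 cells, a mouse melanoma line of strain C57BL/6, by bulk MARS-seq, which reads the 3′ ends of polyadenylated RNA. The design holds 4 libraries: 2 of cells stably transduced by lentivirus with a control vector (shControl) and 2 of cells with a short hairpin RNA against exon 8 of Lmna (shLmna), the gene of the nuclear lamina proteins lamin A and lamin C. Cells of both groups were kept under puromycin, so vector integration and drug selection are shared. The labels speak of a control shRNA, while the reagent list of the study names an empty vector, so any effect of carrying a hairpin as such cannot be told apart from that of lowering Lmna. A single hairpin was used, and whether replicate libraries stem from separate cultures or transductions is not given in the sources used here. The p-values therefore measure the spread between libraries, which may be technical.

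Vimentin, the product of Vim, builds the main intermediate filament network of mesenchymal and melanocytic cells, and nestin, the product of Nes, joins such filaments as a copolymer in progenitor cells. Plectin (Plec) is a plakin that binds intermediate filaments and, through nesprin-3, the outer nuclear membrane, while dystonin (Dst) and the microtubule-actin crosslinking factor (Macf1) are spectraplakins, very long proteins that bridge actin and microtubules. Through these linkers the cytoplasmic filaments are joined to nesprins and SUN proteins, and through those to the lamina. The comparison asks how transcripts of this network stood in cells with less lamin A/C.

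The promoters of Vim, Dst and Macf1 are shown because these 3 genes differed between the groups. For Dst the more upstream of its 2 listed RefSeq starts is given, which lies downstream of the annotated gene start at 33908225. The RefSeq table (GRCm38.p6) had an entry for 4 of the 5 genes, with 2 starts for Dst and none for Plec. Each sequence runs 5′ to 3′ from 250 bases before to 50 bases after the annotated start, and capitals mark the TATA box (TATAAA), the CCAAT box and the GC box (GGGCGG), each searched on both strands.

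Vim, chr2:13574061-13574360, plus strand: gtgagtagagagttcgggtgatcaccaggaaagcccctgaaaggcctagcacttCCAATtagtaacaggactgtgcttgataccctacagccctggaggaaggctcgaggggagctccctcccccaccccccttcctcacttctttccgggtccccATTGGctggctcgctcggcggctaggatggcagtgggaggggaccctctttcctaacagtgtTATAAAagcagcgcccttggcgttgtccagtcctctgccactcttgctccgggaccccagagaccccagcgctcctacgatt
Dst, chr1:34011345-34011644, plus strand: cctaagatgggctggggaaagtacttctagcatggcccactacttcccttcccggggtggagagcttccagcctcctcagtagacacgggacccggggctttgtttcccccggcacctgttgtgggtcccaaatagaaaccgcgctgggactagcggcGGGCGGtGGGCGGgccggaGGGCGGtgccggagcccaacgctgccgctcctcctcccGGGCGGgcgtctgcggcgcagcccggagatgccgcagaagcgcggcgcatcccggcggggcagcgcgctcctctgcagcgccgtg
Macf1, chr4:123684311-123684610, minus strand: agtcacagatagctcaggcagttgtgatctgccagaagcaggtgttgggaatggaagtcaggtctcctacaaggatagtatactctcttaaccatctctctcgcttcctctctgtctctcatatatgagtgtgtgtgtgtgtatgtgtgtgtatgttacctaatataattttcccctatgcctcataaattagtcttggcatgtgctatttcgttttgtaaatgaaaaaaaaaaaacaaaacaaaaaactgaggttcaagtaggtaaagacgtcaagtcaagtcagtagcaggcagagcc

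The Vim window held 1 TATAAA match, whose first base lies at -32 from the start, and 2 CCAAT matches, of which 1 is on the opposite strand. The Dst window held 4 GGGCGG matches and no other, and its GC content was 70.3%, against 59.3% for Vim and 40.3% for Macf1. None of the 3 motifs occurred in the Macf1 window, and no matches overlapped each other. Among all 32851 promoters of that length in the table, TATAAA was found in 13.6%, CCAAT in 37.4% and GGGCGG in 35.7%. The matches describe the sequence only, and these libraries hold no measurement of factor binding.

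The library labels were checked first on Lmna and on melanocyte genes. Lmna gave 2826 and 2684 counts in shControl against 331 and 480 in shLmna, and its log2 fold change was -2.61 (edgeR adjusted p = 7.93e-06, SE 0.142). Library totals ranged from 2494880 to 3808843 counts. Of the 7 melanocyte markers, 6 were expressed well enough to be tested, and the 7 together summed to 20117 to 20891 CPM (counts scaled to a common library size, with TMM factors) in shControl and 21156 to 24602 CPM in shLmna. Sox10 was lower in shLmna (-0.89, edgeR adjusted p = 0.00161), Mlana (0.51, 0.00510) and Pmel (0.41, 0.0258) were higher, and Tyr, which encodes tyrosinase, had between 1 and 7 counts per library. Fibroblast markers, which matter here because fibroblasts are rich in vimentin, summed to 7.12 to 7.50 CPM in shControl and 2.37 to 4.90 CPM in shLmna, with Dcn and Lum at 0 in each library. Leukocyte markers summed to 14.5 to 16.4 CPM in shControl and 11.1 to 12.0 CPM in shLmna; nearly all of this was Cd68, and Ptprc and Cd3e were at 0. Endothelial markers stayed at or below 1.34 CPM and keratinocyte markers at or below 0.396 CPM. In such bulk samples, fewer cells of a type and less RNA per cell cannot be told apart.

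Vim was lower in the shLmna cells, Dst and Macf1 were higher, and Nes and Plec did not pass the test. By the edgeR quasi-likelihood test, 3 of the 5 genes thus had an adjusted p under 0.05, against 15.2% of the 9150 tested genes. Of these, 1 was lower in shLmna and 2 were higher, where 9.74% of tested genes were lower and 5.48% higher. None of the 5 passed the limits used in the study, which also ask for a log2 fold change over 1 in size, while 7.64% of tested genes did. Neither Nes nor Plec passed at an unadjusted edgeR p under 0.05, which 2750 of the 9150 genes did. By DESeq2 with its adjusted p, Vim, Dst and Macf1 passed and Nes and Plec did not, and no DESeq2 log2 fold change of the 5 exceeded 1 in size. After a correction for GC content, Dst (1.03) and Macf1 (1.02) came to lie just above the fold limit. Without it, the median log2 fold change of genes of like GC (within 3 percentage points) was 0.00036 around Dst and 0.013 around Macf1. The groups did not overlap for 3 of the 5 genes, and this was the case for 60.1% of tested genes, so a lack of overlap was common.

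**Figure D1:**
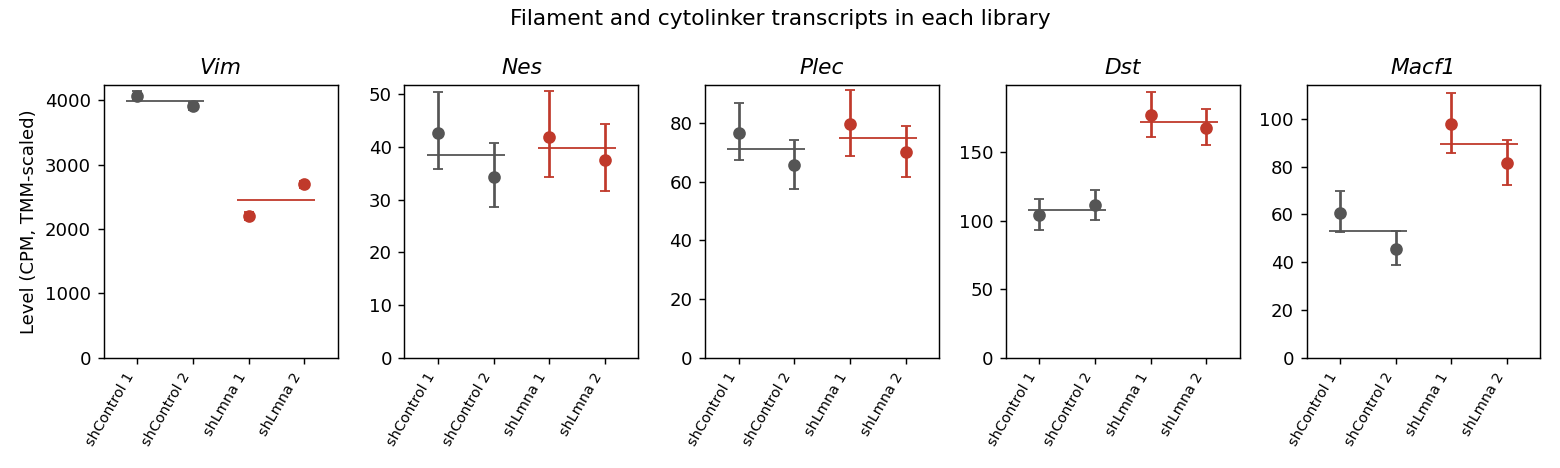
Level of each gene in each library, in CPM scaled by TMM, on linear axes that start at 0; points are libraries, vertical bars are exact 95% Poisson intervals of the count and horizontal lines are group means. Vim sat between 3913 and 4069 CPM in shControl and between 2203 and 2694 CPM in shLmna, Dst and Macf1 were higher in both shLmna libraries, and the groups overlapped for Nes and Plec.

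Vim gave 13136 and 14615 counts in shControl 1 and 2, and 5569 and 9887 counts in shLmna 1 and 2. In CPM these were 4069 and 3913 in shControl against 2203 and 2694 in shLmna. Both shLmna libraries lay below both shControl libraries. The mean level went from 3991 ± 110.2 to 2448 ± 347 CPM (SD, n = 2 each). Vim thus fell by 38.6%, which is -0.70 on the log2 scale (95% interval -0.96 to -0.45, SE 0.113, edgeR adjusted p = 0.00286). Vim held 0.403% and 0.384% of all counts in the shControl libraries and 0.223% and 0.270% in the shLmna libraries. In CPM the shLmna libraries differed from each other 1.22-fold and the shControl libraries 1.04-fold. Replicates of the 5 genes, Vim included, differed 1.04-fold to 1.33-fold, the widest being Macf1 in shControl. For Vim the replicates differed beyond counting error in shLmna (binomial test of equal level, adjusted p = 8.98e-33) and in shControl (binomial adjusted p = 0.00589). The adjusted call needed shLmna 1, the lower of the pair. Without it the log2 fold change was -0.56 and the edgeR adjusted p 0.0545, and over 13 alternatives the adjusted p ran from 6.55e-10 to 0.0545. The fibroblast markers together came to 7.12 to 7.50 CPM in shControl and 2.37 to 4.90 CPM in shLmna. Whether such cells had a part in the Vim difference was not tested.

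Nes gave 138 and 128 counts in shControl against 106 and 138 in shLmna. Its level was 42.7 and 34.3 CPM in shControl against 41.9 and 37.6 CPM in shLmna, so both shLmna values fell between the shControl values. The log2 fold change was 0.045 (SE 0.187, edgeR adjusted p = 0.907). The 95% interval, from -0.37 to 0.46, leaves room for changes between 0.772-fold and 1.38-fold. Leaving out shControl 2 or shLmna 1 turned the sign, to -0.11 and -0.027. The ratio of vimentin to its filament partner nestin was lower in both shLmna libraries, and the difference between their fold changes was not tested. Vim had 95.2 and 114.2 counts per Nes count in shControl against 52.5 and 71.6 in shLmna.

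Plec, the cytolinker closest to intermediate filaments, gave 247 and 245 counts in shControl against 201 and 257 in shLmna. In CPM it stood at 76.5 and 65.6 in shControl against 79.5 and 70.0 in shLmna, with overlapping groups. The log2 fold change was 0.071 (SE 0.150, 95% interval -0.26 to 0.41, edgeR adjusted p = 0.798), an interval that spans 0.833-fold to 1.32-fold. Its sign turned without shControl 2 (-0.043) or shLmna 1 (-0.014), and a correction for GC content gave 0.20. Plec and Nes also kept nearly the same ratio to each other, with 0.559 and 0.522 Nes counts per Plec count in shControl against 0.527 and 0.537 in shLmna.

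Dst gave 335 and 415 counts in shControl against 447 and 616 in shLmna. The level rose from 103.8 and 111.1 CPM in shControl to 176.8 and 167.8 CPM in shLmna, and the spread within each group was small beside the gap between them. With means of 107.4 ± 5.19 and 172.3 ± 6.34 CPM (SD, n = 2 each), the log2 fold change was 0.68 (SE 0.122, 95% interval 0.41 to 0.95), or 1.60-fold, with an edgeR adjusted p of 0.00546. Macf1, the other spectraplakin, gave 196 and 170 counts in shControl against 247 and 299 in shLmna. Its level was 60.7 and 45.5 CPM in shControl against 97.7 and 81.5 CPM in shLmna, again without overlap. The shControl libraries differed from each other beyond counting error (binomial adjusted p = 0.0212). The means were 53.1 ± 10.7 and 89.6 ± 11.5 CPM (SD, n = 2 each), and the log2 fold change was 0.75 (SE 0.175, 95% interval 0.36 to 1.14), or 1.68-fold, with an edgeR adjusted p of 0.0186. The intervals of these spectraplakins cover each other, and their ratio within a library overlapped between groups, at 1.71 and 2.44 Dst counts per Macf1 count in shControl against 1.81 and 2.06 in shLmna. Both increases lost their adjusted call when either shLmna library was left out. Far fewer genes of any kind were called higher in those fits than in the main fit. Without shLmna 1 and without shLmna 2 the log2 fold change was 0.65 and 0.73 for Dst, and 0.63 and 0.89 for Macf1. The log2 fold change of Dst was 1.03 after correction for GC content and 0.32 in the batch-corrected log2 values. That of Macf1 was 1.02 and 0.29, and each kept its adjusted call there. In the batch-corrected values, limma called 1992 genes lower and 1784 higher, against 891 and 501 in the main edgeR fit.

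**Figure D2:**
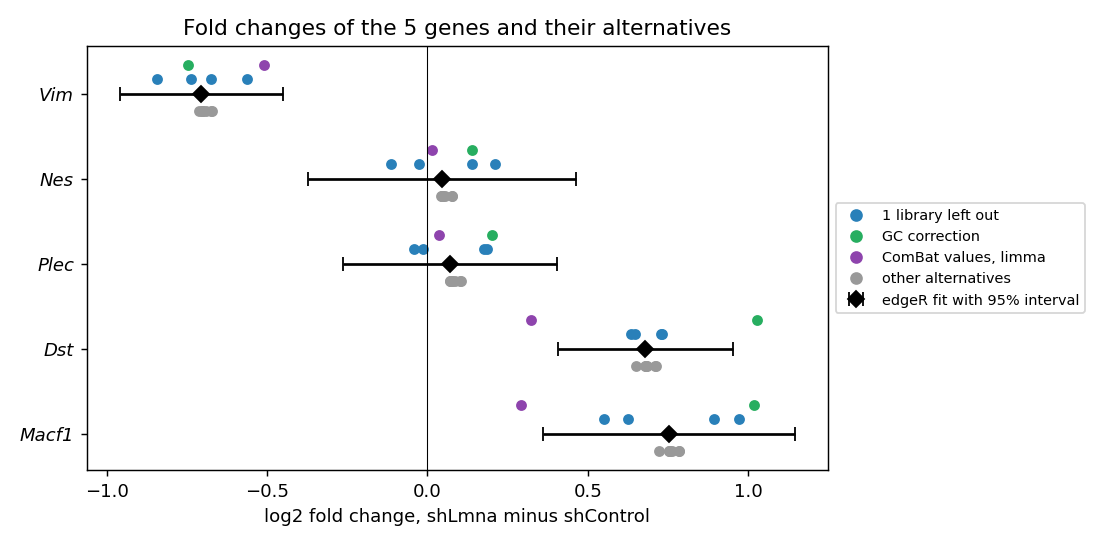
Log2 fold change of each gene, shLmna minus shControl, with its 95% interval (diamonds, edgeR) and under each alternative (dots: blue, 1 library left out; green, GC correction; purple, limma on the batch-corrected values; grey, other normalizations, filter, replicate block, recovered counts and DESeq2). Vim stayed below 0 and Dst and Macf1 above 0 throughout, between -0.84 and -0.51, 0.32 and 1.03, and 0.29 and 1.02, while Nes and Plec scattered around 0.

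Ratios of counts within a library do not depend on how libraries are scaled, so they were computed for the 10 pairs of genes. The balance between vimentin and the spectraplakins moved most. Vim had 39.2 and 35.2 counts per Dst count in shControl against 12.5 and 16.1 in shLmna, and the lowest shControl ratio was 2.19 times the highest shLmna ratio. Against Macf1 the Vim ratios were 67.0 and 86.0 in shControl against 22.5 and 33.1 in shLmna, a gap of 2.03-fold between the nearest libraries. Against Plec the Vim ratios were 53.2 and 59.7 in shControl against 27.7 and 38.5 in shLmna. Plectin and the spectraplakins also moved apart, since there were 0.737 and 0.590 Plec counts per Dst count in shControl against 0.450 and 0.417 in shLmna. The Plec to Macf1 ratio was 1.26 and 1.44 in shControl against 0.814 and 0.860 in shLmna. The Nes to Plec and Dst to Macf1 ratios overlapped between groups. The ratios share their counts and are given as a description, without a test.

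The counts come from the last 1000 bases of each transcript, so the annotated 3′ ends decide which isoforms are seen. On GRCm38, Vim lies on chromosome 2 at 13573927 to 13582826 on the plus strand with 9 exons, and its counted window holds 685 coding bases over 7 exons and 315 bases after the coding sequence. Nes lies on chromosome 3 at 87971078 to 87980451 (plus strand, 4 exons), with 576 coding bases and 424 bases of stop codon and 3′ UTR in the window. In the longest RefSeq-matched transcript of each of the 3 cytolinkers, the window lies wholly in the 3′ UTR, within 1 exon. Plec spans 76170974 to 76232574 on the minus strand of chromosome 15 with 33 exons, and its 13 RefSeq-matched transcripts end within a few bases of each other, so their shares cannot be separated here. Macf1 spans 123349633 to 123684360 on the minus strand of chromosome 4 with 98 exons, and its 2 RefSeq-matched transcripts end at 123349633 and 123349716. Dst is the gene with separate ends. It spans 33908225 to 34308661 on the plus strand of chromosome 1 with 98 exons in its longest RefSeq-matched transcript, and its 4 RefSeq-matched transcripts end at 34183904, 34307592, 34308652 and 34308661. The first of these belongs to a transcript of 8788 bases that stops far short of the others, and the matrix holds a single sum per symbol, so which of these ends carried the increase was not tested. No exon of another annotated gene overlapped the counted window of any of the 5 genes.

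The share of genes that differed varied with the base composition of the counted 3′ end. The GC content was 46.8% for Vim, 56.7% for Nes, 58.8% for Plec, 37.9% for Dst and 38.5% for Macf1. The Dst value, used for the shares and the correction, is that of its longest RefSeq-matched transcript. Its ends at 34183904 and 34307592 had 44.7% and 55.8%. Among 1634 tested genes within 3 percentage points of the GC content of Dst, 16.03% were lower and 9.12% higher, and among 1760 genes near Macf1, 13.9% were lower and 9.32% higher. Over all 9150 tested genes, 9.74% were lower and 5.48% higher, so both shares were larger near Dst and Macf1. The median log2 fold change was 0.00036 around Dst and 0.013 around Macf1, against -0.00107 over all tested genes. Around Vim, 4.52% of 2303 genes were lower and 4.56% higher. Around Nes (1613 genes) 7.44% were lower and 2.98% higher, and around Plec (1025 genes) 8.88% and 2.73%. The part of base composition in these results was not tested beyond the correction given above, under which 46.2% of all calls were lower, against 64.0% without it.

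**Figure D3:**
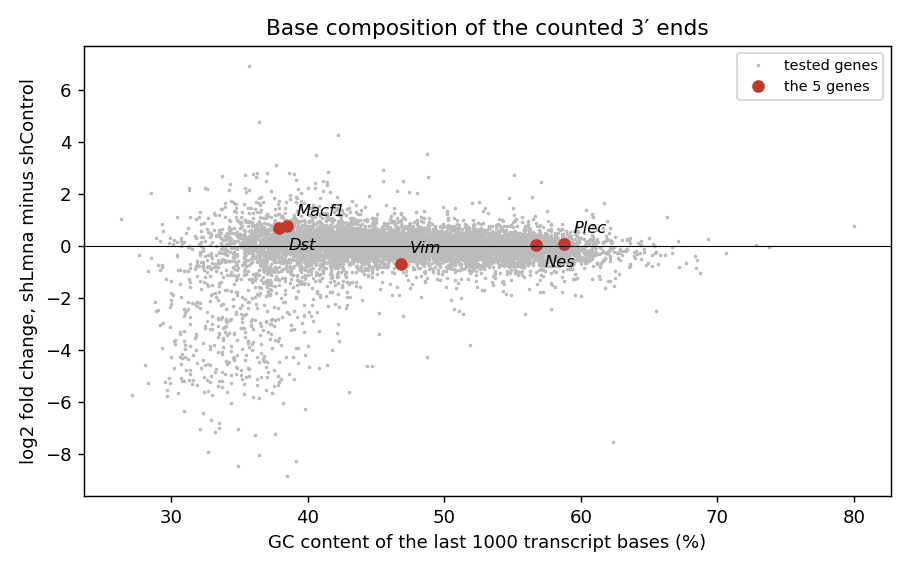
Log2 fold change of the tested genes with a known 3′ end (grey) against the GC content of the last 1000 transcript bases in percent, with the 5 genes in red. Dst (37.9% GC) and Macf1 (38.5% GC) lie above 0 in the AT-rich range, where the grey points spread widest, and Vim (46.8% GC) lies below 0.

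Few other cytoplasmic intermediate filament genes were expressed. Of 21 such genes (desmin, GFAP, peripherin, neurofilaments, keratins and lens filaments), 10 had no count in any library and 2 could be tested. Bfsp2, a filament protein of the eye lens, had 114 and 149 counts in shControl against 149 and 200 in shLmna and was higher (log2 fold change 0.59, SE 0.163, edgeR adjusted p = 0.0377). This call was lost with DESeq2 (adjusted p = 0.232; 0.0124 to 0.232 over the 13 alternatives) and without shControl 1 or either shLmna library (0.0706 to 0.217). Des, encoding desmin, had between 19 and 34 counts per library and stood at -0.11 on the log2 scale (edgeR adjusted p = 0.858). Krt8, a simple epithelial keratin, gave 16 and 9 counts in shControl against 0 and 1 in shLmna, and Gfap 9 and 9 against 1 and 3. Both were too low to be tested.

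Of 8 other plakin and Gas2 domain genes, 3 had enough counts to be tested, and these passed with 2 lower and 1 higher, where 15.2% of all tested genes passed. Gas2l3, which binds actin and microtubules during cell division, had 136 and 160 counts in shControl against 192 and 253 in shLmna, and differed by 0.77 on the log2 scale (edgeR adjusted p = 0.00790, SE 0.149), close in size to that of Dst and Macf1. Gas2l1 had 412 and 591 counts in shControl against 219 and 380 in shLmna and was lower by edgeR (-0.58, SE 0.152, adjusted p = 0.0296). The call was lost with DESeq2 (adjusted p = 0.0649; 0.000233 to 0.240 over the 13 alternatives) with GC correction (0.0591), and without shControl 2 (0.0751) or shLmna 1 (0.240) or shLmna 2 (0.104). Gas2l3 lost its call without shLmna 1 (edgeR adjusted p = 0.0853) or shLmna 2 (0.0551; 0.000186 to 0.0853 over the alternatives), and its log2 fold change was 1.39 with GC correction. Gas2 itself, an actin-associated protein of growth-arrested cells, fell to 1 and 1 counts in shLmna from 22 and 33 in shControl (edgeR adjusted p = 0.00119), a ratio of 24.5 with an exact 95% counting interval of 6.46 to 207.2. The plakins Dsp, Evpl, Ppl and Eppk1 had at most 4 counts in any library.

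At the nuclear envelope, 14 of 15 genes that anchor the cytoskeleton or the lamina were tested. Lmna, the target of the hairpin, was the one that passed, where 15.2% of all tested genes passed. The median log2 fold change over the 14, Lmna included, was -0.064, against -0.00107 over all tested genes. Lmnb2, a B-type lamin gene, had -0.41 (95% interval -0.73 to -0.10, edgeR adjusted p = 0.0797). Syne3, whose product nesprin-3 binds plectin, was near the limit of testing with 15 and 8 counts in shControl against 6 and 12 in shLmna (-0.21, 95% interval -1.42 to 1.0). Syne1, Syne2, Sun1 and Sun2, the giant nesprins and the SUN proteins, had log2 fold changes of 0.43, 0.053, 0.099 and 0.16, with edgeR adjusted p between 0.0789 and 0.862. Emd, encoding emerin, gave -0.065 with an interval of -0.34 to 0.21.

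Among 10 tested microtubule end partners of the spectraplakins, 2 passed the edgeR test, both higher, where 5.48% of all tested genes were higher and 15.2% passed in either direction. Mapre1, encoding the end-binding protein EB1 that recruits spectraplakins to growing microtubule ends, had 83 and 60 counts in shControl against 119 and 163 in shLmna (log2 fold change 1.14, SE 0.236, edgeR adjusted p = 0.0106). Dctn1, encoding the largest dynactin subunit, had 27 and 30 counts in shControl against 40 and 72 in shLmna (1.12, SE 0.264, edgeR adjusted p = 0.0194), and did not pass with DESeq2 (adjusted p = 0.212; 0.00256 to 0.212 over the 13 alternatives). Without shLmna 1 or shLmna 2 neither passed, with edgeR adjusted p of 0.0734 and 0.0880 for Mapre1 (5.28e-06 to 0.0880) and 0.0552 and 0.183 for Dctn1. The median of the 10 was -0.020. Clip1 had a value of 0.58 that did not pass (edgeR adjusted p = 0.130), and Clasp1 and Clasp2, which bind to Macf1 and Dst at the cell cortex, had -0.31 and -0.18.

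Of 12 tested adhesion partners of plakins and vimentin, 3 were lower and 1 higher, where 9.74% of all tested genes were lower and 5.48% higher, and the median was -0.14. Vcl, encoding vinculin of focal adhesions, had 25 and 60 counts in shControl against 2 and 2 in shLmna (edgeR adjusted p = 0.00160), a ratio of 18.9 with an exact 95% counting interval of 7.12 to 71.0. Without shControl 2, the higher of its group, the fitted log2 fold change of Vcl was -3.51, against -4.14 with it. Tln1, encoding talin, was 418 ± 42.1 CPM in shControl and 280.3 ± 41.3 CPM in shLmna (SD, n = 2 each; log2 fold change -0.57, SE 0.143, edgeR adjusted p = 0.0246). Ilk, the integrin-linked kinase, was 197.0 ± 8.70 against 138.5 ± 3.40 CPM (-0.51, SE 0.118, edgeR adjusted p = 0.0185). Itga6, the integrin subunit of hemidesmosomes to which plectin and dystonin are linked, was higher with 139 and 132 counts in shControl against 166 and 224 in shLmna (0.69, SE 0.165, edgeR adjusted p = 0.0206), but not with DESeq2 (adjusted p = 0.112; 0.00138 to 0.141 over the 13 alternatives). Itga6 also lost its call without shControl 2 (0.0588), shLmna 1 (0.141) or shLmna 2 (0.114). Tln1 and Ilk lost theirs without shLmna 1 (edgeR adjusted p = 0.239 and 0.162) or shLmna 2 (0.0725 and 0.147), in ranges of 0.000196 to 0.239 and 0.00203 to 0.162. The other subunit of that integrin, Itgb4, had 4, 35, 6 and 10 counts in the 4 libraries and was not tested, while Itgb1 gave -0.081 (edgeR adjusted p = 0.693).

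Of 9 tested kinases known to phosphorylate vimentin or nestin, 1 was lower and 1 higher by edgeR, a share near the 15.2% of all tested genes, and the median was -0.033. Pak2 had 71 and 59 counts in shControl against 15 and 32 in shLmna (log2 fold change -1.33, SE 0.302, edgeR adjusted p = 0.0166). Rock2 had 53 and 78 against 85 and 108 (0.75, SE 0.222, edgeR adjusted p = 0.0496). Neither passed with DESeq2, with an adjusted p of 0.118 (0.000232 to 0.118 over the 13 alternatives) for Pak2 and 0.284 (0.0133 to 0.284) for Rock2. Without shLmna 1 or shLmna 2 the edgeR adjusted p was 0.113 and 0.0656 for Pak2 and 0.223 and 0.128 for Rock2, which also missed without shControl 1 (0.101). The mitotic kinases Aurkb and Plk1 had log2 fold changes of -0.033 and -0.045, and Akt1 of -0.29 (edgeR adjusted p = 0.229).

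Vimentin is also a marker of the epithelial to mesenchymal transition, and of 13 further genes of that programme 4 were tested. Of these, 1 was lower and 0 higher, where 9.74% of all tested genes were lower and 5.48% higher. Zeb2, a transcription factor, passed as lower, with 22 and 35 counts in shControl against 1 and 2 in shLmna (edgeR adjusted p = 0.00155), a ratio of 16.9 with an exact 95% counting interval of 5.50 to 84.4. With GC correction its fitted log2 fold change was -2.67, against -3.97 without. At such counts both depend on the default prior count of the edgeR fit. Snai2 had 17 and 22 counts against 3 and 10 (edgeR adjusted p = 0.0837). Twist1 (8 and 4 counts in shControl), Snai1 (3 and 2) and Zeb1 (1 and 1) had 0 counts in both shLmna libraries. These genes were too low to be tested. The mesenchymal genes Fn1 and Cdh2, for fibronectin and N-cadherin, had log2 fold changes of 0.34 and -0.10 (edgeR adjusted p = 0.237 and 0.806). Epithelial genes were near 0 in both groups, with at most 3 counts of Cdh1 in any library and none of Epcam or Cldn1. Lmna and the cell type markers apart, 13 genes of these lists had an edgeR adjusted p under 0.05. In the batch-corrected log2 values these 13 kept direction and call with smaller log2 fold changes. Those lower ran from -0.40 to -0.26 and those higher from 0.19 to 0.33. Calls were common in those values, with 1992 lower and 1784 higher over all genes, against 891 and 501 in the main fit.

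**Figure D4:**
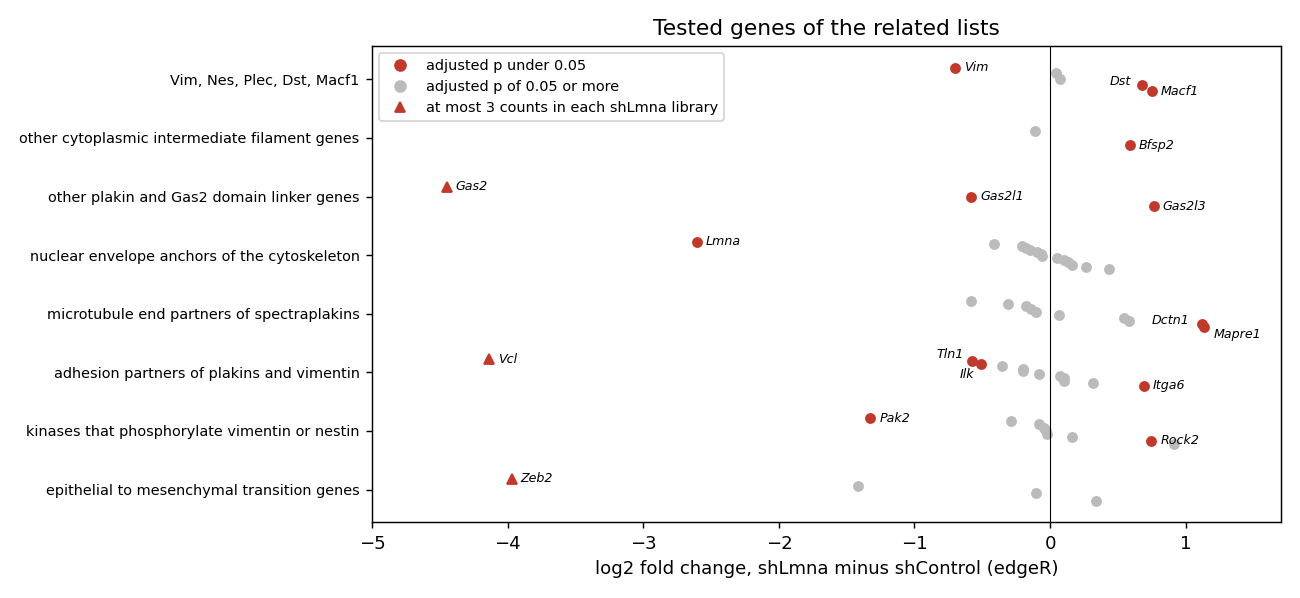
Log2 fold change, shLmna minus shControl, of the tested genes of each list, with those of adjusted p under 0.05 in red and named. Triangles mark genes with at most 3 counts in each shLmna library, whose fitted size depends on the default prior count of the edgeR fit. The 5 genes lie between -0.70 and 0.75, and the tested plakin and Gas2 domain linkers, microtubule end partners and adhesion partners held genes on both sides of 0.

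The genes whose profile over the 4 libraries was most like each of the 5 were found by the root mean square distance between centred log2 CPM values. For Vim these were Rsrp1 (distance 0.0242), Snx18 (0.0329) and Atp9b (0.0332), of which Rsrp1 passed the edgeR test (log2 fold change -0.67, adjusted p = 0.0134). Dst was nearest to Abhd6 (0.0134), Creb3 (0.0175) and Tubd1 (0.0208), and Macf1 to Trim44 (0.0372), Hint3 (0.0417) and Peg10 (0.0427). Nes was nearest to Mlycd, Mcm3 and Ctps, and Plec to Ap2m1 and Ckap2l among others, at distances of 0.00503 to 0.0142. With 4 libraries such likeness is a description of levels only.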

How the data were processed

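RNA of transduced B16F10 cells was profiled by MARS-seq in 4 libraries (2 shControl, 2 shLmna, grouped by sample title). According to the study's methods, the authors trimmed reads with Cutadapt, aligned them to mm10 with STAR 2.4.2a (submitters' processing notes) marked duplicates of a unique molecular identifier (UMI) and then counted UMIs with a modified HTSeq over the last 1000 bases of RefSeq genes and 100 bases downstream. Raw counts by gene symbol, deposited as a matrix, entered the main tests; whether this matrix is that UMI count or a count before duplicates were collapsed is not stated for it. A second deposited table holds a signal, the gene count divided by a DESeq2 size factor, from which whole counts were recovered for 100% of values (tolerance 0.01). It also holds the authors' p-values and directions, which were not used. Another deposited table holds log2 values corrected by the authors with ComBat for batches that are not named.

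Counts were tested two-sided in edgeR 4.0.16 (glmQLFTest, R 4.3.3) with TMM scaling, the filterByExpr filter and group as the single term, and Benjamini-Hochberg adjustment over 9150 genes. Standard errors were derived from the F statistic, and intervals are at 95%. An exact permutation test of 2 against 2 cannot go below p = 0.333. Totals were 2494880 to 3808843 counts, and count-based intervals cover counting error only. If the counts include duplicates of a molecule, these intervals and the binomial p-values understate that error. Replicates differed beyond sampling noise (chi-square over its degrees of freedom 6.96 in shControl and 3.91 in shLmna) and were kept as separate samples. The alternatives were RLE, upper quartile or no composition scaling, no filter, a replicate block, recovered counts, a GC correction, leaving out each library, DESeq2 1.42.0, and limma 3.58.1 on the ComBat values. GC content and gene coordinates are from GENCODE vM21 (GRCm38) and promoters from RefSeq. Scripts were tested on simulated data.

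Genes named are Lmna, the 5 members, the list genes with adjusted p under 0.05 (at most 6 of a list) and the 3 nearest profiles of each member (prior count 2). Other list genes and markers were named after their values were seen, for their known role. Some genes that these rules name are not reported here. The members and lists were chosen with earlier results of these data known.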

Additional observations from a re-analysis of the deposited data

How the results depend on the processing

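Fold changes of the 5 genes, Lmna and the 13 list genes that passed the test, markers apart, were recomputed under 13 alternatives. Vim kept its direction in all of them, and leaving out 1 library gave -0.84 to -0.56. Dst gave 0.63 to 0.73 and Macf1 0.55 to 0.97 with 1 library left out, Nes -0.11 to 0.21 and Plec -0.043 to 0.19. Vim lost its call without shLmna 1, and Dst and Macf1 without either shLmna library. A library left alone in its group was assumed to vary like the other group. Lower and higher calls over all genes were fewer with 1 shLmna library left out than with 1 shControl library left out or none. The sign turned without shControl 2 for Nes (-0.11) and Plec (-0.043), and without shLmna 1 for Nes (-0.027) and Plec (-0.014). Lmna kept its call throughout (-2.74 to -1.54). Of 169 values of the 13 list genes, 138 kept direction and call, 31 lost the call and 0 changed sign. Lower calls over all genes numbered 891, with 589 by DESeq2, 1992 by limma on ComBat values and 414 to 1329 with 1 library left out. Higher calls numbered 501, with 218 by DESeq2, 862 with the GC correction, 1784 by limma on ComBat values and 89 to 775 with 1 library left out. The numbers of the replicates mark nothing shared in the labels, and the deviations of samples with the same number correlated at 0.0129 across genes. With the replicate block there were 1220 lower and 852 higher calls, Vim was at -0.71, Dst at 0.68 and Macf1 at 0.76, and no call of the 5 genes changed. Except where shown by construction (fewer samples or genes), the cause was not tested. Nes, Plec and Macf1 rest on 106 to 299 counts per library, which limits how small a change could be seen.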
